A study of Mus musculus with 166 samples.

Results

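Huntingtin (Htt) is a large scaffold protein whose gene carries, near its start, a CAG repeat that encodes a run of glutamines. Expansion of this repeat in 1 allele causes Huntington's disease, in which the striatum is the most affected region, while the cerebellum, a cortex of granule cells and Purkinje cells with Bergmann glia and myelinated tracts, is considered less affected in the adult form. Knock-in mice that carry an expanded repeat in their own Htt gene are used to follow how gene expression responds to repeat length and age.

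The comparison described here is that of heterozygous Q140 knock-in mice (Htt allele tm1Mfc) with heterozygous Q20 knock-in mice (allele tm2Mem) at 6 months of age, in poly(A) RNA of the cerebellum. Its members were chosen by genotype, age and tissue in the labels, which gave 8 Q140 and 8 Q20 libraries, 4 females (F1 to F4) and 4 males (M1 to M4) each, 16 of 166 libraries of the series. All animals were on the C57BL/6 background, carried 1 normal Htt allele and, per the study's methods, came from knock-in males crossed with C57BL/6J females. Q20 is the control, since its repeat is of normal length. The housing field of the labels puts Q140 mice with Q140 mice and Q20 mice with Q20 and WT mice, while the study's methods describe cages shared by heterozygous and WT mice, so the repeat length, the line with the DNA around its knock-in, and the cage group cannot be told apart.

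For comparison with other animals, the report uses Q140 (7 libraries) against Q20 (8 libraries) at 10 months, and Q175 against WT (8 libraries each) at 6 months. It also sets beside them the levels in Q80 (tm1.1Pfs), Q92 (tm4Mem) and Q111 (tm5Mem) heterozygotes of 6 months, 8 libraries each, and fits Q111 against the same Q20 libraries. Neither of the first 2 comparisons shares a library with the 6 month comparison of Q140 and Q20. Q175 mice carry an allele that arose from the Q140 line by expansion of its repeat, so these lines share the origin of the DNA around the repeat. WT mice are littermates of the Q20 line without a knock-in, and at 6 months their libraries and those of Q175 are named in another format than the Q140 and Q20 libraries.

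Total counts ran from 28248612 to 38087843 per library, and levels are given in CPM (counts scaled to a library total of fixed size). Granule cell, Purkinje cell and Bergmann glia markers were high in all 16 libraries: Gabra6 was at 591 to 786 CPM, Pcp2 at 168 to 651 CPM and Slc1a3 at 939 to 1389 CPM. The Xist and Ddx3y levels matched the labelled sex in all 16 libraries, and went against it in 1 of the 71 libraries used in all, the Q20 library F5 of 10 months. No pair of libraries of a group was alike within sampling noise, as the chi-square per gene was at least 6.30.

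Htt itself was measured first, as a check of the libraries. Htt was at 204 to 273 CPM in the 8 Q140 libraries. In Q20 it was at 276 to 308 CPM in 6 libraries, at 166 CPM in F1 and at 71.4 CPM in F3, so the groups overlapped only through these 2 libraries. With all 16 libraries the log2 difference of Htt between Q140 and Q20 was -0.02 (edgeR quasi-likelihood F-test with Benjamini-Hochberg adjustment, adjusted p = 0.971). The Q20 library F3 also stood apart in its length index, the mean log2 deviation of genes of the top quartile of length minus that of the bottom quartile, which was -1.30 there, -0.38 in F1 and -0.12 to 0.14 in the other 14 libraries. Its median correlation with the other Q20 libraries was 0.912. Libraries under 150 CPM of Htt were therefore left out of a second fit, which removed F3 and left 8 Q140 and 7 Q20 libraries. Htt gets no test in that fit.

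**Figure D1:**
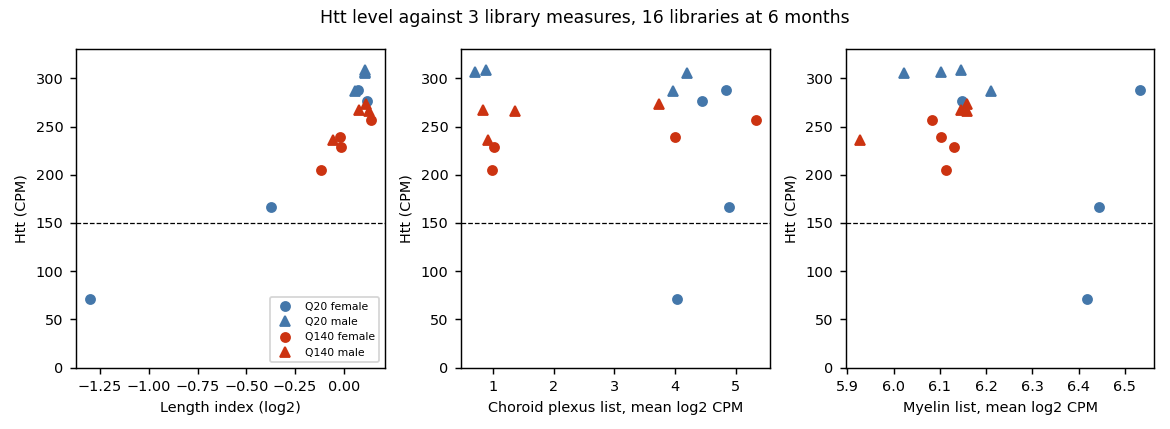
Each point is 1 of the 16 libraries at 6 months (blue Q20, red Q140, circles females, triangles males). The y axis is Htt in CPM and the x axes are the length index (log2) and the mean log2 CPM of the choroid plexus and myelin lists. The dashed line marks 150 CPM. The Q20 female F3 lies alone at 71.4 CPM and a length index of -1.30, and 3 Q20 females and the Q20 male M4 lie above all Q140 libraries on the myelin axis.

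Few genes passed the test, and those that did moved by small amounts. With all 16 libraries, 1 of 15292 genes tested (0.00654%) passed an adjusted p of 0.05, Il20rb, which was lower in Q140. Without Q20 F3, 2 genes (0.0131%) passed: Il20rb was lower and Synpr higher. Before adjustment 727 genes (4.75%) had a p under 0.05 in that fit. DESeq2 called 17 genes without Q20 F3 and 8 with it. The 17 were Brinp3, Car2, Cfap74, Galnt11, Gm5067, Il20rb, Lnx1, Mal, Marcks, Mirt1, Necab1, Nrep, Rims3, Synpr, Syt6, Tnc and Tspan2. Below, a gene said to pass or not to pass the threshold is judged by edgeR unless stated otherwise. All fold changes below are from the edgeR fit without Q20 F3, as log2 differences of Q140 minus Q20 with their standard error (SE), unless stated otherwise, and a p named adjusted is from edgeR over all 15292 genes.

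The promoters of the 2 genes that passed are shown from RefSeq (GRCm38.p6), 250 bases before and 50 after the listed start. Capitals mark the GC box GGGCGG or its reverse complement CCGCCC, the core of sites bound by Sp1, a transcription factor that is known to bind huntingtin. Both strands were searched. Each promoter held 1 match, on the reverse strand, and 35.7% of the 32851 promoters in the RefSeq table held at least 1. Il20rb is shown from chr9:100486424-100486723 (minus strand), and Synpr from chr14:13284530-13284829 (plus strand), the first of 2 starts listed for it. The whole Il20rb window lies inside the gene span given below from another annotation, which begins further upstream. For Il20rb the stretch shown therefore depends on which start is used.
Il20rb: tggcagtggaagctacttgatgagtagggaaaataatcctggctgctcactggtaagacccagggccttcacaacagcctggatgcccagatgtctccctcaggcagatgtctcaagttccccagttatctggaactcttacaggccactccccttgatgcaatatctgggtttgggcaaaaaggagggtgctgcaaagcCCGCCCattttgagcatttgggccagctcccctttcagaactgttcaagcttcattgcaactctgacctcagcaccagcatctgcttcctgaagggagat
Synpr: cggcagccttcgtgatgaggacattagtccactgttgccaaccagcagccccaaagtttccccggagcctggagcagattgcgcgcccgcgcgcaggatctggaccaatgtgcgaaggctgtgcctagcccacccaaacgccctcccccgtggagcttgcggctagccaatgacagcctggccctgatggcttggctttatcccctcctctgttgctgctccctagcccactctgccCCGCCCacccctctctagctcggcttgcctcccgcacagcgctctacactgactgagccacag
The match is a description of these letters. It is not a site shown to be bound, and Sp1 itself was at 75.4 ± 7.48 CPM (SD, n = 7) in Q20 and 71.2 ± 6.22 CPM (SD, n = 8) in Q140, with an adjusted p of 0.97.

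Il20rb (chromosome 9, 100457719 to 100486788, minus strand, GRCm38), a subunit of the receptors for the cytokines interleukin 19, 20 and 24, gave the clearest difference. The 7 Q20 libraries lay between 91.1 and 96.1 CPM with a median of 93.0, and F3, although left out, was at 91.4 CPM. The 8 Q140 libraries lay between 65.2 and 83.4 CPM with a median of 73.2. Every Q140 library was below every Q20 library. The log2 difference was -0.36 ± 0.04 (SE), a level of 0.778 times that of Q20 (adjusted p = 0.00298), and -0.40 with all 16 libraries (adjusted p = 0.0109). It was -0.42 ± 0.07 in females and -0.31 ± 0.05 in males. These did not differ past the threshold (male minus female effect 0.16 ± 0.09 with 16 libraries, adjusted p = 0.642). Within females alone and within males alone the fall was not past the threshold (adjusted p = 0.9998 and 0.122). Without Q140 F4 the fit of all 16 libraries gave an adjusted p of 0.0505, and in the fit without Q20 F3 it passed whichever other library was left out.

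Synpr (chromosome 14, 13284780 to 13616340, plus strand), which encodes synaptoporin, a membrane protein of synaptic vesicles, was higher in Q140. The 7 Q20 libraries lay between 75.6 and 85.6 CPM (median 78.0) and the 8 Q140 libraries between 90.5 and 106 CPM (median 96.0), with no overlap. The left-out Q20 library F3 was at 90.6 CPM, inside the Q140 range. The log2 difference was 0.28 ± 0.04 (adjusted p = 0.0121), and 0.23 with all 16 libraries (adjusted p = 0.706). It was 0.25 ± 0.07 in females and 0.31 ± 0.04 in males. The call was lost without Q20 M1 (adjusted p = 0.0528), without Q20 M3 (0.0554) and with the choroid plexus level of each library as a covariate (0.107). The annotation lists an antisense gene, Gm15913, within Synpr, and whether the counting used strand is not given in the sources used here.

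**Figure D2:**
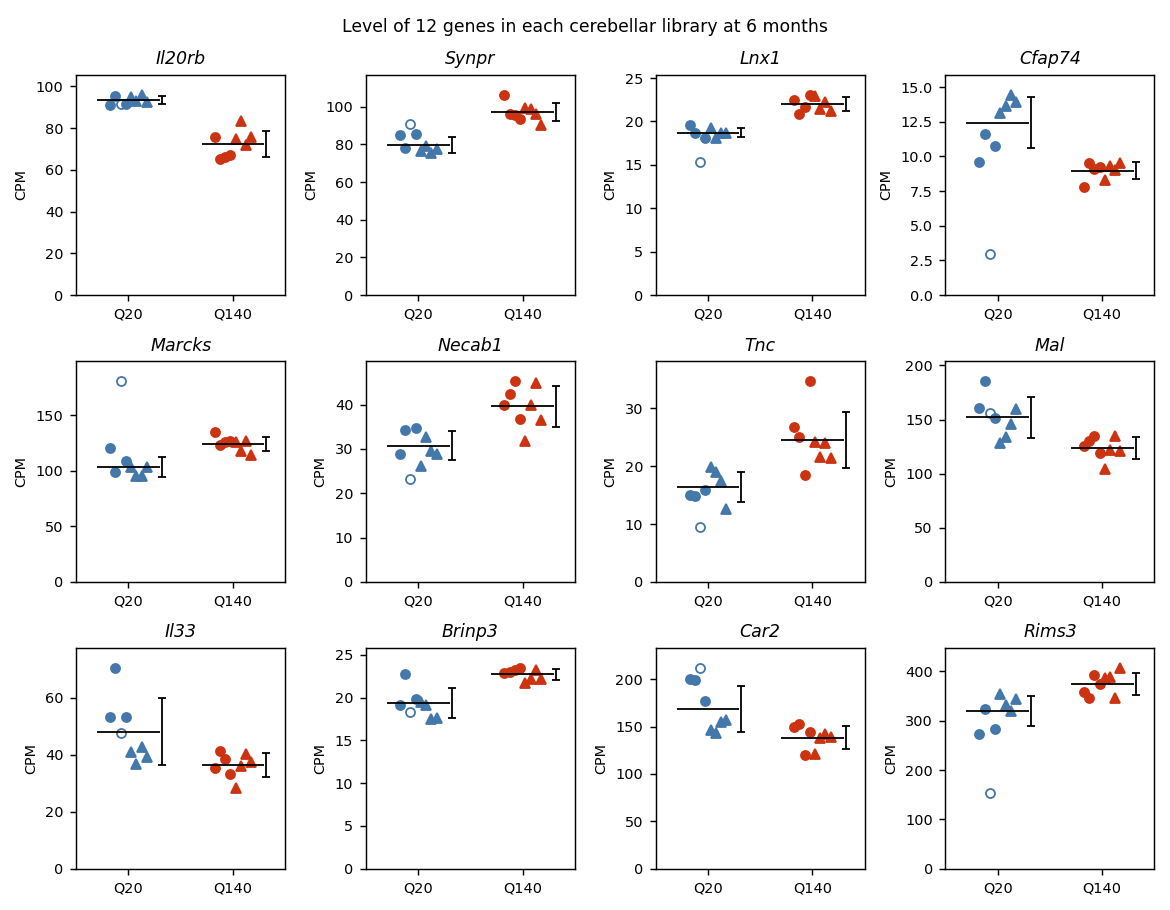
Level of 12 genes in CPM (y axis, from 0) in each Q20 (blue) and Q140 (red) library at 6 months, with circles for females and triangles for males. The open circle is Q20 F3, which is left out of the mean (line) and SD (bar). The groups do not overlap for Il20rb, Synpr, Lnx1 and Cfap74 apart from F3.

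The 7 Q20 and 8 Q140 ranges did not overlap for 7 of 15292 genes (0.0458%): Il20rb, Synpr, Lnx1, Cfap74, Amph, Zfpm2 and Tpbg. These other 5 genes did not pass the adjusted threshold, and except Lnx1 they were chosen after their values were seen. Lnx1, an E3 ubiquitin ligase that targets the Notch regulator Numb, was at 18.1 to 19.6 CPM (median 18.7) in Q20 and 20.8 to 23.1 CPM in Q140, a log2 difference of 0.23 ± 0.04 (adjusted p = 0.0563). Its level in the WT libraries of the same age was 19.3 to 24.1 CPM, so the Q140 range lay inside that of WT, which has another name format. Cfap74, a protein of cilia and flagella, was at 9.61 to 14.5 CPM in Q20 and 7.81 to 9.55 CPM in Q140, a log2 difference of -0.45 ± 0.08 (adjusted p = 0.0852). In the left-out F3 it was at 2.94 CPM. Amph (amphiphysin, an endocytic protein of nerve terminals) had a log2 difference of 0.11 ± 0.03, Zfpm2 (a cofactor of GATA factors) 0.15 ± 0.04 and Tpbg (a membrane glycoprotein) 0.62 ± 0.15. For Tpbg, Q140 F3 at 27.3 CPM stood far above the Q140 median of 12.9 CPM, and the left-out Q20 F3 was at 13.9 CPM, inside the Q140 range.

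Necab1, Marcks, Rims3, Syt6 and Brinp3 had positive log2 differences of small p that did not pass the threshold, and all but Necab1 were chosen after their values were seen. Necab1, a calcium-binding protein of neurons, was at 26.1 to 34.8 CPM (median 29.5) in Q20 and 31.7 to 45.2 CPM (median 39.9) in Q140. All Q140 libraries but M1 were above the highest Q20 library, and the log2 difference was 0.36 ± 0.08 (adjusted p = 0.304). Marcks, a protein kinase C substrate that links actin to the membrane, had a log2 difference of 0.26 ± 0.04 (adjusted p = 0.0556), which was 0.11 (0.740) with Q20 F3, where it was at 181 CPM against 95.2 to 120 CPM in the other Q20 libraries. Rims3, a protein of the presynaptic active zone, was at 0.24 ± 0.05 and Syt6, a synaptotagmin, at 0.32 ± 0.07 on the log2 scale (adjusted p = 0.304 and 0.344). Brinp3, a neural protein induced by retinoic acid in cell culture, was at 0.23 ± 0.05, with all Q140 libraries at 21.8 to 23.4 CPM and 6 of the 7 Q20 libraries at 17.5 to 19.8 CPM (adjusted p = 0.304).

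In the list of 22 tested neuronal calcium-binding proteins (of 23), 0 passed the threshold. At an unadjusted p under 0.05, 4 were higher and 2 lower (27.3%, against 4.75% of all genes), and the median log2 difference was 0.02 against 0.01 over all genes tested. Besides Necab1, the members of smallest p were Calb2 (calretinin, 0.23 ± 0.07), Ncald (0.15 ± 0.05) and Vsnl1 (-0.11 ± 0.04). Calb2 marks granule cells and unipolar brush cells of the cerebellum. The granule cell list (16 genes), the Purkinje cell list (13) and the list of molecular layer interneurons (7) had medians of -0.01, 0.02 and -0.01. Of their genes, 3, 0 and 0 had an unadjusted p under 0.05 (18.8%, 0% and 0%, against 4.75% of all genes). The granule cell genes Chn2 and Neurod1 were at -0.11 ± 0.04 and -0.15 ± 0.07 and Pax6 at 0.11 ± 0.04 on the log2 scale.

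Tnc encodes tenascin C, an extracellular matrix glycoprotein made by glia. It was at 12.6 to 19.9 CPM (median 15.9) in Q20 and 18.5 to 34.6 CPM (median 24.1) in Q140, and 7 of 8 Q140 libraries were above the highest Q20 library. The log2 difference was 0.58 ± 0.13 (adjusted p = 0.344), with 0.80 in females and 0.40 in males. Of the 19 tenascins, lecticans and partners, 0 passed the threshold, and 3 were higher and 1 lower at an unadjusted p under 0.05 (21.1%, against 4.75%). These were Itgb3, an integrin subunit (0.36 ± 0.12), Ncan (neurocan, 0.23 ± 0.10), and Hapln2, a link protein of nodes of Ranvier (-0.19 ± 0.08), besides Tnc. The median of the list was 0.04.

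Of the 29 genes of myelin and oligodendrocytes, 25 had a negative log2 difference and 0 passed the threshold. At an unadjusted p under 0.05, 13 were lower and 0 higher, or 44.8% against 4.75% of all genes tested. The lowest p belonged to Mal, a proteolipid of compact myelin, with 128 to 185 CPM (median 152) in Q20 and 104 to 135 CPM (median 124) in Q140, a log2 difference of -0.30 ± 0.06 (adjusted p = 0.304). The ranges overlapped. Car2 (carbonic anhydrase 2, high in oligodendrocytes) was at -0.29 ± 0.06 and Tspan2 (a tetraspanin of oligodendrocytes) at -0.22 ± 0.05. Mobp (myelin-associated oligodendrocyte basic protein) was at -0.31 ± 0.08. In bulk tissue, fewer cells of a type and less RNA per cell cannot be told apart.

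The myelin levels were highest in Q20 females. The summed level of the 29 genes was 5846 to 8787 CPM (median 6576) in the 7 Q20 libraries and 4883 to 6386 CPM (median 6071) in Q140, and Q20 F1 and F2 were at 7591 and 8787 CPM. The left-out Q20 F3 was at 7739 CPM. The median log2 difference of the list was -0.27 in females and -0.04 in males, and the median male minus female effect was 0.21 against -0.00 over all genes. None of the 29 passed the threshold in that interaction test, and 7 had an unadjusted p under 0.05, against 5.52% of all genes. With Q20 F3 the median was 0.34 against 0.03 over all genes, and 9 of the 29 had such a p, against 5.72% of all genes. Mal was -0.36 in females and -0.24 in males. The mean log2 CPM of the list was 6.10 ± 0.08 (SD, n = 8) in Q140 and 6.23 ± 0.19 (SD, n = 7) in Q20 (two-sided exact permutation test, p = 0.119, and 0.475 adjusted over 4 library measures). With this mean as a covariate, chosen after the data were seen, 0 genes passed the threshold, Il20rb included (-0.34, adjusted p = 0.0629), and Synpr was at 0.26 (0.136).

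Il33, a nuclear cytokine of the interleukin 1 family that oligodendrocytes and astrocytes of the brain make, followed the same pattern. It was at 36.9 to 70.2 CPM (median 42.5) in Q20 and 28.2 to 41.4 CPM (median 36.8) in Q140. The 3 Q20 females were at 53.1 to 70.2 CPM and the 4 Q20 males at 36.9 to 42.5 CPM, inside or next to the Q140 range. The log2 difference was -0.40 ± 0.10 (adjusted p = 0.578), with -0.65 in females and -0.18 in males, and a male minus female effect of 0.46 ± 0.17 with 16 libraries (unadjusted p = 0.0138, adjusted p = 0.642). Of the 12 tested interleukin 1 family genes (of 17), 1 was higher and 1 lower at an unadjusted p under 0.05 (16.7%, against 4.75% of all genes). Il1r1, a receptor of interleukin 1, was at 0.20 ± 0.08 beside Il33. Of the 7 tested genes of the interleukin 10 and 20 family (of 15), Il20rb was the only one past the threshold. Il10rb, the subunit shared by receptors of interleukin 10 and 22, was at -0.17 ± 0.07 (adjusted p = 0.97), and the median of the 7 was 0.01.

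**Figure D3:**
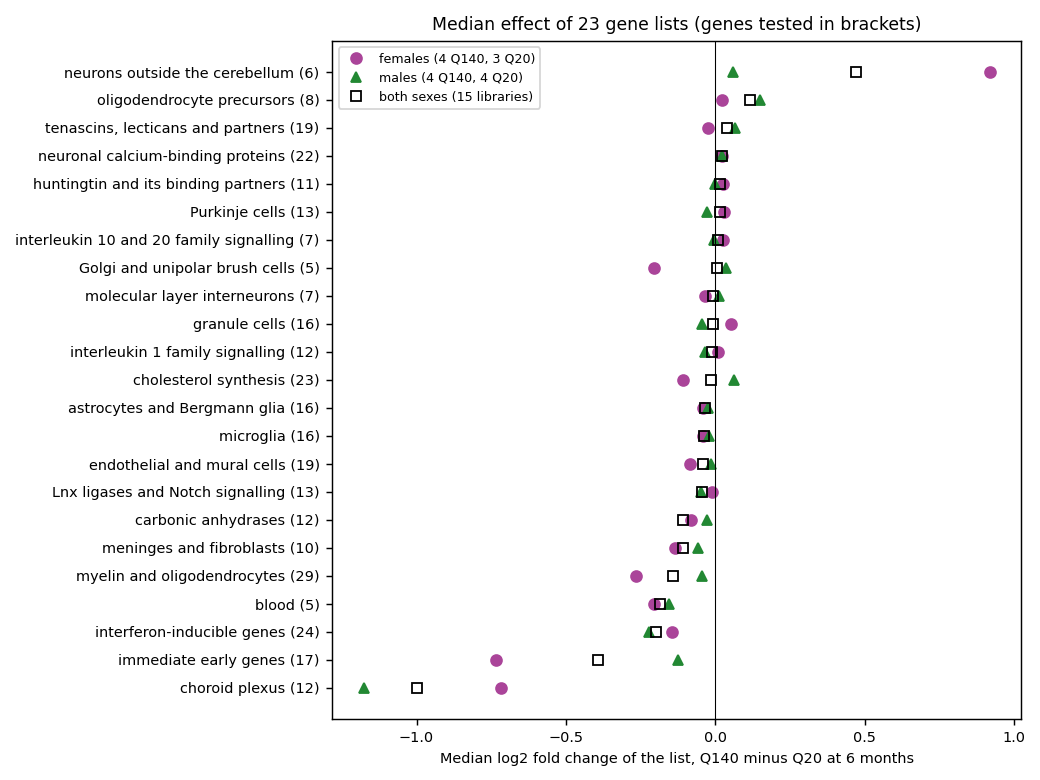
Median log2 fold change (Q140 minus Q20 at 6 months, x axis) of the tested genes of 23 gene lists, for females (circles), males (triangles) and both sexes (squares). Q20 F3 is left out. For both sexes together, the lists farthest from 0 are choroid plexus (-0.997), neurons outside the cerebellum (0.47), immediate early genes (-0.39), interferon-inducible genes (-0.20), blood (-0.19) and myelin (-0.14).

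Of 27 lead genes of Q175, a list chosen on these data and so no independent evidence, Synpr and Il20rb passed the threshold. Over all genes tested 0.0131% passed. At an unadjusted p under 0.05, 10 of the 27 were higher and 8 lower (66.7%, against 4.75% of all genes). The lists below had no member past the threshold. Of 17 immediate early genes, which rise within minutes of neuronal activity, 15 had a negative difference and 5 were lower at an unadjusted p under 0.05 (29.4%, against 4.75% of all genes), with a median of -0.39 (-0.73 in females, -0.12 in males). They include Npas4 (-0.70 ± 0.27), Fosl2 (-0.75 ± 0.27) and Dusp1 (-0.54 ± 0.22). Of 24 interferon-inducible genes, 20 were negative with a median of -0.20, and 4 were lower (among them Ifit1 at -0.76 ± 0.27 and Usp18 at -0.61 ± 0.20) and 2 higher at that level (25%, against 4.75%). Mndal, of the interferon-inducible p200 family, was at 0.47 ± 0.11 (adjusted p = 0.563) and overlaps its relatives Ifi211 and Ifi203 in the annotation. The cholesterol synthesis list (23 genes), which oligodendrocytes use for myelin, had a median of -0.01 with 0 genes at an unadjusted p under 0.05, and a median of -0.11 in females and 0.06 in males. Of 12 carbonic anhydrases 1 was higher and 2 lower at an unadjusted p under 0.05 (25%, against 4.75%). The 2 lower were Car9 at -0.33 ± 0.09 and Car2, which is also in the myelin list.

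Markers of other tissue differed between libraries. The choroid plexus list (12 genes, none at 0 in any library) summed to 35.5 to 3105 CPM in Q140, with 5 of 8 libraries under 65 CPM, and to 31.3 to 2842 CPM in the 7 Q20 libraries, with 2 under 65 CPM. Its median log2 difference was -0.997, with 0 of 12 genes at an unadjusted p under 0.05. The list mean did not differ past the threshold (exact permutation test, p = 0.237). Markers of neurons outside the cerebellum (6 of 12 tested) summed to 233 CPM in Q140 F3 and to 28.5 to 82.3 CPM elsewhere among these 15 libraries, with a median log2 difference of 0.47 (0.92 in females, 0.06 in males), and Tpbg was also high in that library. Endothelial and mural (19 genes), microglia (16) and astrocyte and Bergmann glia (16) lists had medians of -0.04, -0.04 and -0.04. Oligodendrocyte precursors (8 genes) had a median of 0.12, the opposite sign to the myelin list. The meninges (10 genes) and blood (5) lists had medians of -0.11 and -0.19. Unipolar brush and Golgi cell markers (5 genes) had a median of 0.01, while Eomes alone was at -0.71 ± 0.34. The part of these tissues in the gene results was not tested beyond the myelin and choroid plexus covariates.

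The genes within 10 Mb of Htt on chromosome 5 were looked at because the knock-in lines were made separately. Of 151 genes tested there, 0 passed the threshold, and 13 were higher and 4 lower at an unadjusted p under 0.05 (11.3%, against 4.75% of all genes). Their median log2 difference was 0.02. Galnt11, an enzyme that starts O-linked glycosylation, lies 9.59 Mb from Htt and was at 37.8 to 43.4 CPM in Q20 and 42.5 to 49.2 CPM in Q140, a log2 difference of 0.19 ± 0.04 (adjusted p = 0.304). Among the 11 genes of huntingtin and its binding partners only Hip1r (0.17 ± 0.07) had an unadjusted p under 0.05 (9.09%, against 4.75% of all genes).

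The same lines at 10 months, in other animals, gave differences of the same sign for most genes past the threshold at that age. There 170 genes (1.11%) passed the threshold, 89 higher and 81 lower. Of these 170 genes, 149 (87.6%) had the same sign at 6 months, against 52.0% of all genes tested. Of the 170, 70 had the same sign and an unadjusted p under 0.05 at 6 months, against 522 of all 15292 genes tested. With all 16 libraries at 6 months, 139 of 170 (81.8%) had the same sign, against 50.5%. Taken the other way, of the 20 genes of smallest p at 6 months all had the same sign at 10 months and 14 passed the threshold there. Il20rb was at -0.50 ± 0.12 at 10 months (adjusted p = 0.0471), Synpr at 0.45 ± 0.05 (0.000594), Tnc at 0.63 ± 0.09 (0.00316), Il33 at -0.58 ± 0.08 (0.00204) and Mal at -0.36 ± 0.07 (0.0137). Lnx1 was at 0.09 ± 0.05 (0.386) and Necab1 at 0.38 ± 0.10 (0.0614). The 10 month count depended on single libraries: it was 72 without Q140 F2, 79 without Q140 F1, 85 without Q20 M3, 98 without Q20 F1, 100 without Q20 M2, 103 without Q20 F4, 113 without Q140 M2 and 468 without Q140 M1.

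The myelin list was lower at 10 months too, with 14 of 29 genes past the threshold, against 1.11% of all genes tested. All 14 were lower, and the median of the list was -0.22. The interferon-inducible and immediate early lists had the opposite sign there, with medians of 0.26 and 0.27. The choroid plexus median was -1.65 at 10 months. In Q175 against WT at 6 months, 22 of the 29 myelin genes passed, all lower (median -0.28), against 18.1% of all genes tested. In Q111 against the 7 Q20 libraries at 6 months, all 29 were negative, with a median of -0.26 against -0.14 in Q140. There 0 passed the threshold, and 20 were lower at an unadjusted p under 0.05, against 1383 of 15292 genes tested at such a p. Of the 17 immediate early genes, 11 passed in Q175 against WT, all lower (median -0.59), against 18.1% of all genes tested. The interferon-inducible list had a median of 0.04 in Q175, with 3 genes higher and 1 lower past the threshold. In Q111 the medians of these lists were -0.01 and 0.18.

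Q175 against WT at 6 months gave 2763 genes (18.1%), 1312 higher and 1451 lower. Of them 1898 (68.7%) had the same sign in Q140 against Q20, against 56.3% of all genes. Of the 2763, 290 had the same sign and an unadjusted p under 0.05 in Q140, against 600 of all 15292 genes tested. All 20 genes of smallest p in Q140 had the same sign in Q175, and 19 passed the threshold there. The exception was Syt6, at 0.03 ± 0.08 in Q175. The genes higher in Q175 had a median of 0.15 in Q175 and of 0.04 in Q140, and the genes lower in Q175 had a median of -0.22 and of -0.02. These genes were chosen by their Q175 values, which enlarges the Q175 medians, so the medians of Q175 and Q140 are not like for like.

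**Figure D4:**
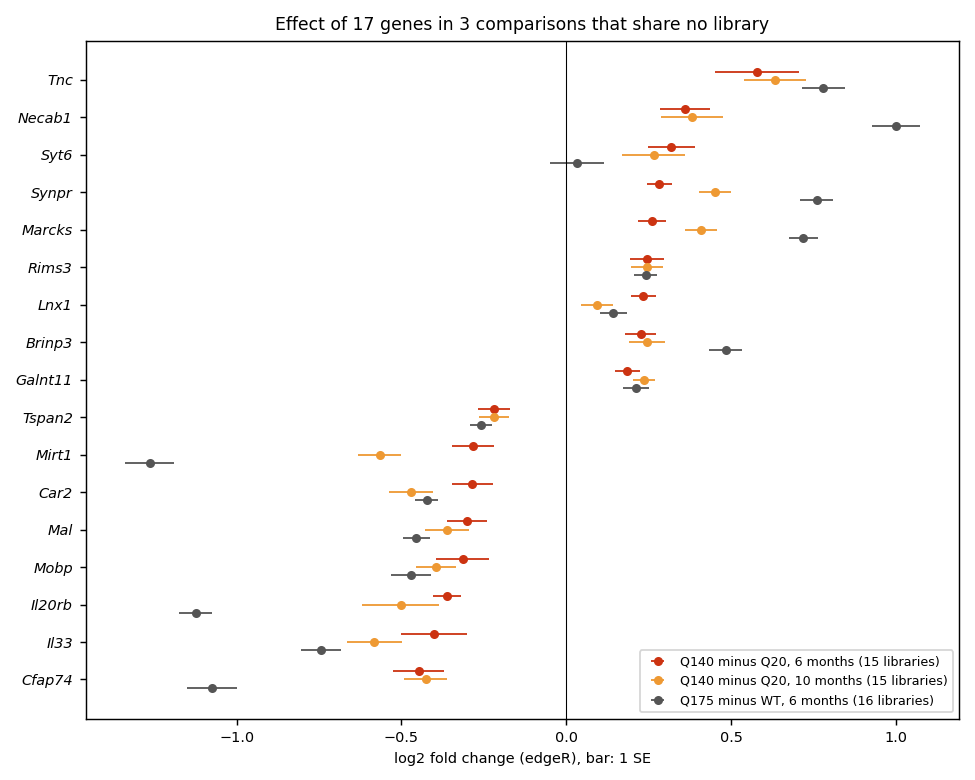
Log2 fold change (x axis) with 1 SE for 17 genes in Q140 against Q20 at 6 months (red, without Q20 F3), at 10 months (orange) and in Q175 against WT at 6 months (grey). The points share their sign in all 17 genes. Il20rb is at -0.36, -0.50 and -1.12, while Rims3 is at 0.24, 0.25 and 0.24.

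The difference of the effects themselves was tested in 1 fit of the 32 libraries of Q140, Q20, Q175 and WT, Q20 F3 included. There 36 genes (0.235%) passed the threshold, 28 with a positive and 8 with a negative difference of the Q140 minus the Q175 effect. Without Q20 F3 there were 102 (0.667%), 68 positive and 34 negative. All 10 genes named from them by rule moved less in Q140 than in Q175. Il20rb fell less in Q140, by 0.72 ± 0.07 on the log2 scale (adjusted p = 4.58e-07). The same held for the noncoding RNA Mirt1 (1.02 ± 0.12), Myo15, an unconventional myosin (1.90 ± 0.22), Ccdc63 (1.19 ± 0.14) and the synaptic cadherin relative Clstn2 (0.67 ± 0.08). Synpr rose less in Q140 (-0.54 ± 0.08, adjusted p = 0.000243), as did Necab1 (-0.62 ± 0.11), Angpt1, a ligand of the receptor Tie2 (-0.47 ± 0.08), Cbx8, a Polycomb protein (-0.60 ± 0.13), and Exd2, an exonuclease (-0.27 ± 0.06). Of these, Cbx8 and Exd2 were near 0 in Q140 (-0.00 ± 0.09 and 0.05 ± 0.05). Mal, Tnc, Il33 and Lnx1 did not pass in this test (0.12 ± 0.08, -0.14 ± 0.15, 0.32 ± 0.12 and 0.09 ± 0.06). The Q140 effect was taken against Q20 and the Q175 effect against WT, so any difference between these controls enters the test.

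Over the 7 genotypes at 6 months, the levels of these genes can be set side by side, with the Q20 libraries shared by the lines compared with them. Il20rb had its highest median in Q80 (97.3 CPM), followed by WT (93.5 CPM), Q20 (92.8 CPM) and Q92 (87.3 CPM), and then by Q111 (80.0 CPM), Q140 (73.2 CPM) and Q175 (43.3 CPM). The ranges of Q111 (71.2 to 90.3 CPM) and Q140 (65.2 to 83.4 CPM) overlapped, while Q175 (40.1 to 50.3 CPM) lay below all other lines. The median of Synpr was 92.7 CPM in Q111, 96.0 in Q140 and 131 in Q175, and that of Necab1 was 34.6, 39.9 and 60.7. For both genes the ranges of Q111 and Q140 overlapped. Mal had medians of 118, 124 and 104 CPM in these lines, and Il33 34.9, 36.8 and 28.8 CPM, with overlapping ranges in Q111 and Q140. Against the 7 Q20 libraries, Q111 gave 0 genes past the threshold, with Il20rb at -0.18 ± 0.04 and Synpr at 0.23 ± 0.04 (adjusted p = 0.263 and 0.211). At an unadjusted p under 0.05 it gave 1383 of 15292 genes, more than the 727 of Q140 against the same Q20 libraries.

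**Figure D5:**
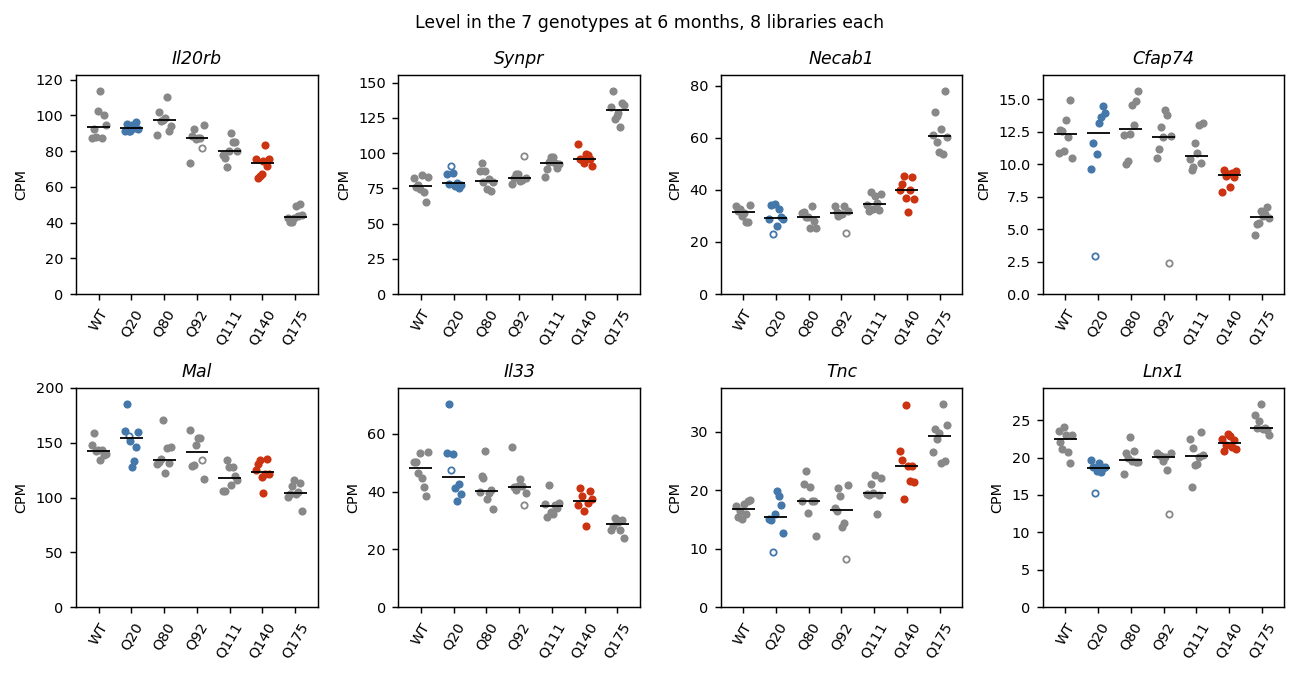
Level of 8 genes in CPM (y axis, from 0) in the 8 libraries of each genotype at 6 months (blue Q20, red Q140, grey the other lines), with the median as a line. Open circles are libraries under 150 CPM of Htt. The Q140 median lies between those of Q111 and Q175 for Il20rb, Synpr and Necab1, while the Q140 and Q111 ranges overlap. The Q140 libraries lie inside the WT range for Lnx1.

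Whether the Q140 effect differed by sex was tested as an interaction with all 16 libraries. No gene passed the threshold (0%), 874 had an unadjusted p under 0.05, and DESeq2 called 1. Leaving out Q20 F3 also gave 0. The 4 females and 4 males of a group, fewer for Q20 without F3, limit what this test can show.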

How the data were processed

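Poly(A) RNA of cerebellum was sequenced by the authors, and 16 of 166 libraries enter the comparison. The authors made and deposited expected counts (estimated counts) for each gene, of which 83.3% were whole, and FPKM values, scaled by transcript length and library total. CASAVA 1.8.2 is named in the submitters' processing notes. The sources used here name no aligner, counter or genome build, so how reads of near-identical or overlapping genes were divided is unknown. Positions are those of GENCODE vM21 (GRCm38) for the same gene ID, and 15116 of 15292 tested genes had one.

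Counts were rounded and fitted with edgeR 4.0.16 in R 4.3.3 (TMM, sex as covariate, two-sided quasi-likelihood F-test with Benjamini-Hochberg adjustment) for genes with at least 0.5 CPM in at least 8 of the 16 libraries. The SE was the size of the log2 fold change divided by the root of the F value. DESeq2 1.42.0 and limma 3.58.1, the latter on log2 (FPKM + 0.1) and with library weights, were alternatives. Single library values were compared by an exact permutation test. The labels number animals within sex and group, and p-values measure the spread between these animals. Named were genes past the threshold (up to 15 each way), up to 5 each way for the differences of effects, up to 4 per list by p in the fit without Q20 F3, and Htt, Il20rb, Il33, Tnc, Mal, Necab1 and Lnx1. The rule for the list members was written when that fit was thought to lose 2 libraries, and it lost 1. Brinp3, Marcks, Cfap74, Galnt11, Rims3, Syt6, Mirt1, Amph, Zfpm2 and Tpbg were chosen after their values were seen. The comparison, its members and the lists were chosen with earlier results of these data known. Scripts were tested on simulated data.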

Additional observations from a re-analysis of the deposited data

Results flagged for a closer look

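The Q20 female F3 stood far from the rest of its group, by a test of the gap to the nearest library, in its length index (-1.30, the next at -0.38) and in the levels of Lnx1 (15.3 CPM), Marcks (181 CPM), Cfap74 (2.94 CPM), Rims3 (153 CPM), Amph (147 CPM) and Zfpm2 (50.3 CPM). Q20 F2 stood apart for Brinp3 (22.7 CPM, the next at 19.8). Among Q140 libraries, M1 stood apart for Mobp (459 CPM, the next at 578) and in the myelin list mean (5.93 on the log2 scale), and F3 for Tpbg (27.3 CPM). These are 11 of 50 sets of values looked at, of which chance would pick about 1 in 20, and the values of a library are not independent of each other.

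The Q140 effect differed from the Q175 effect, as a tested difference on the log2 scale, for Il20rb (0.72), Mirt1 (1.02), Myo15 (1.90), Ccdc63 (1.19), Clstn2 (0.67), Necab1 (-0.62), Synpr (-0.54), Marcks (-0.63, adjusted p = 0.0482), Angpt1 (-0.47), Cbx8 (-0.60) and Exd2 (-0.27), all in edgeR with 32 libraries.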

How the results depend on the processing

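The count of 1 gene with all 16 libraries became 8 with DESeq2, 5 with library weights, 5 with the length index as covariate, 5 with Q20 and WT as controls, 2 with a shared spread of 5 lines, and 0 in females alone. Leaving out each library gave 0 to 2. The count of 2 genes without Q20 F3 became 17 with DESeq2, 6 with library weights, 5 with the length index, 14 with the shared spread, 1 with the choroid plexus covariate, 0 with the myelin covariate, 0 in females alone and 1 in males alone (Cfap74). Leaving out each library gave 1 to 5, the highest without Q20 F1. The 14 genes of the shared spread included Il33, Lnx1, Necab1 and Tnc but not Mal. For both counts, DESeq2 size factors, no filter on low counts, a robust spread, no sex covariate and log2 FPKM stayed within 1.5 times. With the replicate number as a block the counts were 0 and 1 (Dusp5 in place of Il20rb and Synpr). The deviations of same-numbered libraries correlated at -0.06 to 0.34, so the numbers were not taken as pairs. The count for the sex difference was 0, and 1 with DESeq2. The 36 genes of the difference from Q175 became 102 without Q20 F3 and 94 with DESeq2. The 170 genes at 10 months became 497 with DESeq2, 72 to 468 on leaving out each library, and 208 without the library whose sex markers went against its label, and the 2763 of Q175 stayed at 2308 to 2891 on leaving out each library. Il20rb kept its sign in all 29 alternatives to the fit without Q20 F3 (-0.42 to -0.31) and passed the threshold in 25 of them, and Synpr kept its sign (0.25 to 0.31) and passed in 22. With 16 libraries the sign of Htt turned to 0.048 with the replicate block, 0.012 with the choroid plexus covariate, 0.10 on log2 FPKM, 0.20 in females alone, and between -0.15 and 0.071 on leaving out each library, that of Marcks to -0.049 and that of Cfap74 to 0.024 in females alone. Htt kept its sign in 20 of 30 alternatives and passed the threshold in 0. It was at -0.16 with the length index covariate, -0.20 with library weights and -0.22 in males alone.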
